A study of Rattus norvegicus with 8 samples.

Results

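The genes described here are 10 rat genes of heat shock chaperones and of HSF1, a transcription factor: Hsph1, Hspa8, Hspa5, Hsp90aa1, Hsp90ab1, Dnajb1, Hspb1, Hspd1, Hspe1 and Hsf1. They were chosen by name, and every probe whose transcript on the array design belongs to one of them was taken. Probes were found for 9 of the 10 genes, among 16667 genes with a probe, and these were 18 of the 45598 probes on the array. Dnajb1, which encodes a J-domain partner of HSP70, had no probe and is not described further by level. Hspa8 had 4 probes, Hspd1 had 3, Hsp90aa1, Hsp90ab1, Hspe1 and Hsf1 had 2 each, and Hsph1, Hspa5 and Hspb1 had 1 each. All 18 probes were well above background on all 8 arrays and entered the tests. In RefSeq of build GRCr8, Hsf1 lies on chromosome 7, Hspa8 on 8, Hspa5 on 3, Hsp90aa1 on 6, Hsph1 and Hspb1 on 12, and Hsp90ab1, Hspd1 and Hspe1 on 9.

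Total RNA from the lung of male rats was hybridised to 8 arrays of 1 colour, 2 for each of 4 groups. EV rats breathed cigarette smoke for 12 weeks and in week 13 received into the trachea the extracellular vesicles (EVs) isolated from 2500000 mesenchymal stem cells (MSCs) of human umbilical cord. MSC rats had the same smoke exposure and received the same number of the cells themselves. Smoke rats had 12 weeks of smoke and neither treatment, and naive rats breathed normal air. The labels give no strain or age, and do not say that the 2 arrays of a group come from separate animals, so p values measure only the spread between these arrays, which may be technical.

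Heat shock chaperones bind unfolded or partly folded proteins and, mostly at the cost of ATP, help them to fold, keep them from clumping or pass them on for degradation. HSF1, the main transcription factor of the heat shock response, is held inactive by chaperones in unstressed cells. When unfolded protein draws the chaperones away, HSF1 binds heat shock elements in the promoters of chaperone genes. In the lung the response is known to follow oxidants, heat and inhaled toxicants, while Hspa5 belongs to a separate response, that to unfolded protein in the endoplasmic reticulum.

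A heat shock element is built of the unit GAA and its reverse, TTC, in alternation. The 250 bases before the start of each gene were searched on both strands, in the RefSeq promoters of build GRCr8, for 3 such units in a row, with any 2 bases between neighbours (GAA, TTC and GAA, or TTC, GAA and TTC). They occurred in 222 of 33469 promoters (0.663%). The table held promoters of 8 of the 10 genes, without Hsp90aa1 and Hsf1. The long motif was found in Hsph1, in Hspa8, and in the stretch shared by Hspd1 and Hspe1, which start 290 bases apart on opposite strands. A form of 2 units, GAANNTTC or TTCNNGAA, which lies inside the long one and occurred in 13.5% of promoters, was found alone in Hspb1 and Dnajb1, and neither form in Hspa5 or Hsp90ab1. These are matches of letters and not measured sites. A link between the motif and the levels given below was not tested. The stretches are printed with the motif in capitals, 5′ to 3′ on the strand of the gene:
Hsph1, chr12:10427312-10427364, plus strand: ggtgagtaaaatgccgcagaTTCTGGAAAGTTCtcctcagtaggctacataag
Hspa8, chr8:50080281-50080491, plus strand: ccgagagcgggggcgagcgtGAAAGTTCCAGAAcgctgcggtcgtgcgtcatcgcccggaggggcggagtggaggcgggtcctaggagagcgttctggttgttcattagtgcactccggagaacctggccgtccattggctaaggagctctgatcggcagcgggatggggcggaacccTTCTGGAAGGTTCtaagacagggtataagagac
Hspe1 (its minus strand faces Hspd1), chr9:64084242-64084299, plus strand: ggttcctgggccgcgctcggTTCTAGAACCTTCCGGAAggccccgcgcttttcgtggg
Hspb1 (the 2-unit form), chr12:26432383-26432450, minus strand: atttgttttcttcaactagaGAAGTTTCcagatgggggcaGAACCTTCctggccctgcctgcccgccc

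The arrays differed widely in brightness. The 75th percentile of signal per array was 246 to 762 on the EV and MSC arrays, 2677 and 3235 on the smoke arrays, and 568 and 362 on the naive arrays. The smoke arrays had 6.49 times the naive value as geometric means, while the E1A controls, RNAs added in known amount with the labelling kit, gave 0.832 times the signal of the naive arrays. A level is the log2 signal of a probe minus that of the 75th percentile of the spots on its array, which makes it a relative value. Some probes have several spots and all of these count, so a negative level need not lie below the 75th percentile of probes. On EV array 1 the first probe of Hsf1, at a level of -0.12, was at percentile 86.6 of signal. On this scale the median difference of 12729 named genes was 0.35 for EV minus smoke, 0.42 for MSC minus smoke and -0.38 for smoke minus naive. It was -0.18 for EV minus MSC, -0.05 for EV minus naive and 0.13 for MSC minus naive. Scaling to E1A moved these 6 medians to -2.14, -3.60, 2.58, 1.36, 0.43 and -0.93. All arrays were on 1 slide and each group took up 1 of its columns, and the effects of column and group cannot be told apart. Lung markers were present: 5 of 5 measured alveolar type 2 and 5 of 5 alveolar type 1 markers were well above background on every array. In whole lung, fewer cells of a type and less RNA per cell cannot be told apart.

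Markers of other tissue varied between arrays of 1 group. The 5 cardiac muscle markers had a mean level of 2.51 on EV array 1 and 3.59 on MSC array 2, against -3.79 to -1.03 on the other 6 arrays. The 8 immediate early genes, which respond within minutes to handling and stress, averaged 1.08 on MSC array 1, -0.87 on MSC array 2, and -1.36 to 0.56 on the other 6 arrays. By the test described below, some lung cell markers also differed between smoke and naive. By that test 14.8% of all named genes rose and 28.5% fell. In smoke against naive 3 of 5 macrophage markers rose (Mrc1, Cd68 and Adgre1). Of the 5 markers 4 stood higher in smoke, and the lowest difference was -0.83 log2, which did not pass the test. The summed signal of the 5 was 3.80 and 2.60 times the 75th percentile on the smoke arrays, against 1.88 and 1.50 on the naive arrays. In the same comparison 3 of 5 alveolar type 2 markers (Sftpc, Sftpb and Sftpd) and both measured ciliated markers (Foxj1 and Tppp3) fell. Scaled to E1A, all 5 that fell stood higher in smoke. Of the type 2 markers 1 stood higher in smoke, at 0.60 log2, and did not pass the test. The median difference of the type 2 markers was -1.14, and their mean level was 5.56 to 6.80 on the 8 arrays. For all tested probes the median was -0.84 at a mean level of 4 to 6 and -1.33 above 6. The summed signal of the type 2 markers was 377 and 397 on the smoke arrays and 1144 and 1462 on the naive arrays, and that of the ciliated ones 34.2 and 38.8 on the smoke arrays and 70.5 and 72.1 on the naive arrays. The part of all these markers in the results below, the rise of Hspa5 and Hspb1 in smoke included, was not tested.

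Chaperone genes moved in both directions within each comparison that involved the smoke arrays. Where a gene had several probes, the one with the highest mean signal stands for it in counts. In EV against smoke, 1 of 9 genes rose (Hsp90ab1) and 1 fell (Hspb1), and 34.5% of all named genes were called (22.5% higher and 12% lower). Scaled to E1A, 0 rose and 6 fell. None was called without EV array 1, EV array 2 or smoke array 1, and 1 without smoke array 2. In MSC against smoke, 2 rose (Hsp90ab1 and Hspd1) and 3 fell (Hspa5, Hspb1 and Hsf1), beside 55.8% of named genes (35.9% higher and 19.9% lower), with 0 and 8 under E1A scaling, and with 3 calls without MSC array 1 or smoke array 1 and 2 without smoke array 2. In smoke against naive, 2 rose (Hspa5 and Hspb1) and 1 fell (Hsp90ab1), beside 43.2% of named genes (14.8% higher and 28.5% lower), with 8 and 0 under E1A scaling. Without smoke array 1 none of the 9 was called in that comparison, and without naive array 2 there was 1 call. A call means an adjusted p under 0.05 by limma, with Benjamini-Hochberg adjustment over 29612 probes. The shares called among the 9 genes are near or below those of all named genes. Under E1A scaling most of the 29612 probes were called too. In EV against smoke 22255 were called (0.9% of them higher) and in MSC against smoke 26402 (0.8% higher). In smoke against naive 24863 were called (99.5% higher). The 3 comparisons share the smoke arrays, so their values are given side by side and are not independent.

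**Figure D1:**
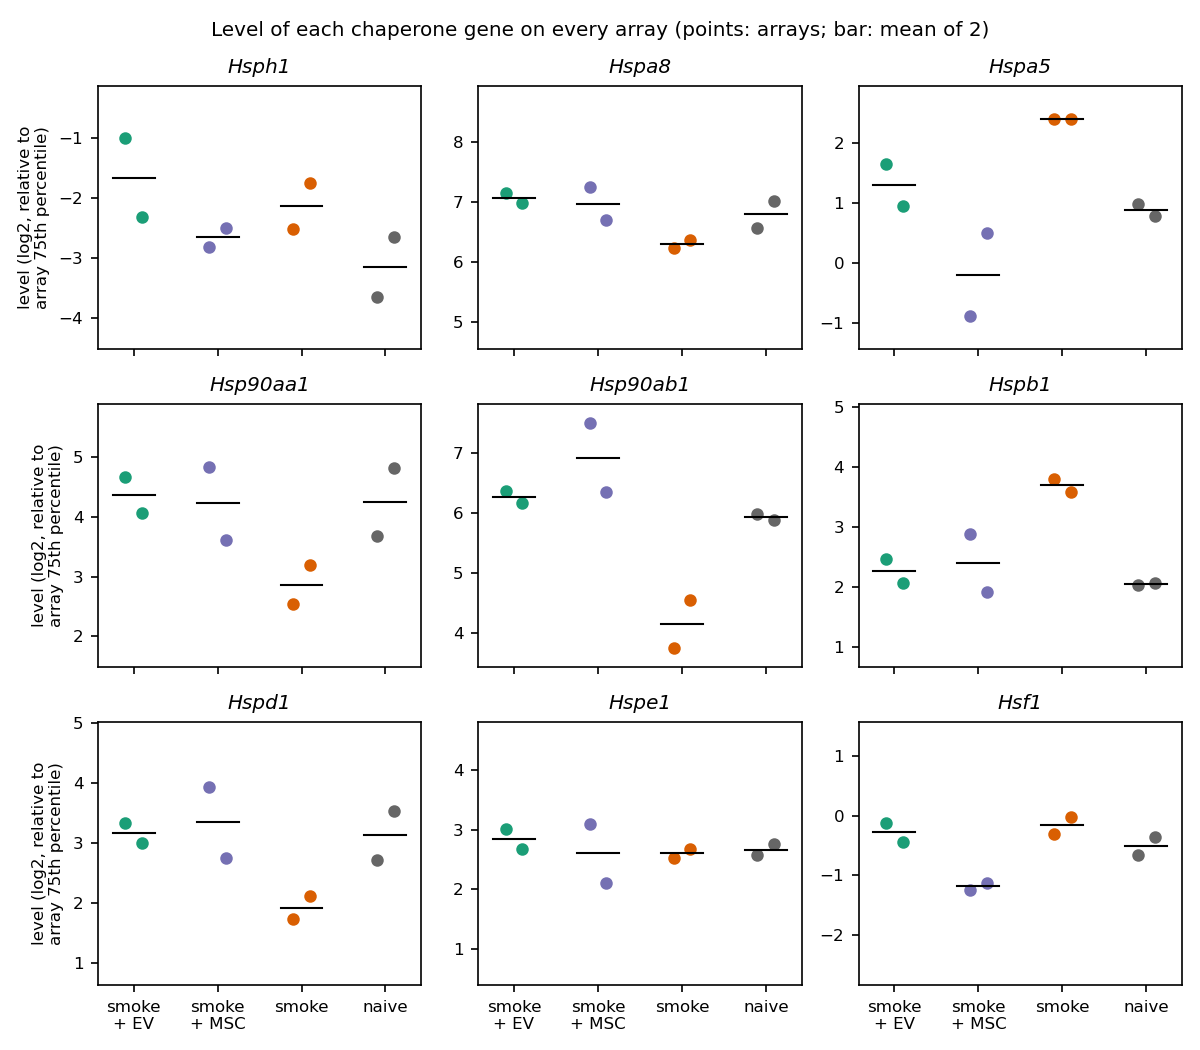
Level of the representative probe of each of 9 chaperone genes (log2 signal relative to the 75th percentile of the array) on the 2 arrays of each group, with a bar at the mean. Hspa5 and Hspb1 have both smoke arrays above all 6 others, and Hspa8, Hsp90aa1, Hsp90ab1 and Hspd1 have both below all others, on this scale. The share of all named genes whose smoke arrays lie apart like this was not counted. The separation is therefore not shown to be particular to chaperones. By the test, 43.2% of named genes were called between smoke and naive. Scaled to the E1A controls, the smoke means of all 9 genes are the highest of the 4 groups.

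Hspa5 encodes BiP, the HSP70 of the endoplasmic reticulum and the sensor that holds the unfolded protein response in check. Its level was 1.66 and 0.95 on the EV arrays, -0.89 and 0.50 on the MSC arrays, 2.40 and 2.40 on the smoke arrays, and 0.98 and 0.78 on the naive arrays. Both smoke arrays were the highest of the 8 and the MSC arrays the lowest, with no overlap between MSC and any other group. Hspa5 rose in smoke against naive by 1.52 log2 (SE 0.48, adjusted p = 0.0338), or 2.86-fold, and by 4.48 when scaled to E1A. It fell in MSC against smoke, with a difference of -2.59 (SE 0.48, adjusted p = 0.00275), and -6.61 under E1A scaling. The difference of EV against smoke was -1.09 (SE 0.48) and missed the threshold (adjusted p = 0.103). This probe has 10 spots on each array. The call in smoke against naive was lost when any 1 of the 4 arrays was left out: the adjusted p was 0.132 without smoke array 1, 0.103 without smoke array 2, 0.0816 without naive array 1 and 0.122 without naive array 2. The call in MSC against smoke was lost with no array left out.

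Hspb1 encodes HSP27, a small heat shock protein that holds unfolded protein without ATP and acts on actin. It stood at 2.46 and 2.06 on the EV arrays, 2.87 and 1.90 on the MSC arrays, 3.80 and 3.59 on the smoke arrays, and 2.02 and 2.07 on the naive arrays. The smoke arrays were apart from the other 6, which overlapped between groups. It rose by 1.65 log2 in smoke against naive (SE 0.37, adjusted p = 0.0106), 3.14-fold, and by 4.61 scaled to E1A. The differences were -1.43 for EV minus smoke (SE 0.37, adjusted p = 0.0212) and -1.31 for MSC minus smoke (SE 0.37, adjusted p = 0.0181), and -3.92 and -5.33 when scaled to E1A. Single arrays decided these calls. Without smoke array 1 the adjusted p was 0.0736 for smoke minus naive, 0.127 for EV minus smoke and 0.0955 for MSC minus smoke. EV against smoke was also lost without EV array 1 (0.055), EV array 2 (0.132) or smoke array 2 (0.0593), and MSC against smoke without MSC array 2, where the difference was -0.82 (0.0675), or smoke array 2 (0.0522).

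Hspa8 encodes HSC70, the HSP70 made at all times in the cytosol, which also takes part in the uncoating of clathrin vesicles and in autophagy. Its promoter holds the long motif at 2 places, as printed above. The representative probe stood at 7.14 and 6.98 on the EV arrays, 7.24 and 6.69 on the MSC arrays, 6.22 and 6.36 on the smoke arrays, and 6.57 and 7.01 on the naive arrays. Both smoke arrays lay below the other 6. The differences were 0.77 for EV minus smoke (adjusted p = 0.0874), 0.67 for MSC minus smoke (adjusted p = 0.1) and -0.49 for smoke minus naive (adjusted p = 0.226), and none was called. All 3 changed sign with quantile normalization (-0.70, -1.47 and 1.27), cyclic loess (-0.20, -0.66 and 0.63) and E1A scaling (-1.71, -3.35 and 2.47).

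The other probes of Hspa8 did not move together. Probe 2 stood at 6.83 and 6.60 on the EV arrays, 6.97 and 6.38 on the MSC arrays, 5.64 and 5.85 on the smoke arrays, and 6.26 and 6.74 on the naive arrays, and had the smoke arrays lowest, as the first did. Probe 3 stood at 4.48 and 4.03 on the EV arrays, 3.50 and 3.77 on the MSC arrays, 4.91 and 4.90 on the smoke arrays, and 3.37 and 3.66 on the naive arrays, with the smoke arrays highest. Probe 4 stood at 0.31 and 0.34 on the EV arrays, 0.79 and 0.39 on the MSC arrays, 1.64 and 0.40 on the smoke arrays, and -0.36 and 0.46 on the naive arrays. Both EV arrays lay below the MSC and smoke arrays, while the other groups overlapped. Between smoke and naive the differences were -0.76 for probe 2 (adjusted p = 0.0926) and 1.39 for probe 3 (adjusted p = 0.00868). In MSC against smoke probe 2 was called at 0.93 (adjusted p = 0.041) and probe 3 at -1.27 (adjusted p = 0.00779), so probes of 1 gene were called in opposite directions. In EV against smoke probe 2 was called at 0.97 (adjusted p = 0.0499), and probe 3 stood at -0.65 (adjusted p = 0.116). Scaled to E1A, the called differences of probe 2 turned to -3.09 in MSC against smoke and -1.51 in EV against smoke.

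Hsph1 encodes an HSP110, which acts as a nucleotide exchange factor for HSP70 and is strongly induced by HSF1 in heated cells. It stood at -1.0 and -2.31 on the EV arrays, -2.81 and -2.49 on the MSC arrays, -2.51 and -1.74 on the smoke arrays, and -3.65 and -2.64 on the naive arrays. EV array 1, which was also high in cardiac muscle markers, was the highest, and the smoke arrays overlapped with EV and MSC arrays but not with naive ones. The difference was 0.47 for EV minus smoke (SE 0.54, adjusted p = 0.507), -0.53 for MSC minus smoke (SE 0.54, adjusted p = 0.422) and 1.02 for smoke minus naive (SE 0.54, adjusted p = 0.151), and none was called. The difference of EV against smoke was -2.01 scaled to E1A and -0.19 without EV array 1.

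HSP90 proteins finish the folding of kinases, steroid receptors and other clients. Hsp90aa1 encodes the inducible cytosolic form and Hsp90ab1 the constitutive one. The representative probe of Hsp90ab1 stood at 6.37 and 6.17 on the EV arrays, 7.50 and 6.35 on the MSC arrays, 3.75 and 4.54 on the smoke arrays, and 5.98 and 5.88 on the naive arrays. The smoke arrays were the lowest, by more than 1 log2, and MSC array 1 the highest. The gene rose in MSC against smoke by 2.78 log2 (SE 0.44, adjusted p = 0.00151), 6.87-fold, but stood at -1.24 under E1A scaling. It rose in EV against smoke by 2.12 (SE 0.44, adjusted p = 0.0105), 4.35-fold, but stood at -0.36 under E1A scaling. In smoke against naive it fell, with a difference of -1.79 (SE 0.44, adjusted p = 0.0148), but stood at 1.18 under E1A scaling.

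The calls of Hsp90ab1 in 2 of the 3 comparisons rested on single arrays. In EV against smoke the adjusted p was 0.0511 without EV array 1, 0.0586 without EV array 2 and 0.0851 without smoke array 1. For smoke minus naive it was 0.108 without smoke array 1, 0.0563 without naive array 1 and 0.0543 without naive array 2. That call was also lost with quantile normalization (-1.08), cyclic loess (-0.78) and the mean of both probes (-0.69). The second probe of the gene stood at 4.24 and 3.63 on the EV arrays, 3.62 and 3.40 on the MSC arrays, 3.53 and 3.81 on the smoke arrays, and 3.49 and 3.04 on the naive arrays. It was called nowhere, with differences of 0.27 for EV minus smoke, -0.16 for MSC minus smoke and 0.40 for smoke minus naive (adjusted p from 0.338 to 0.699). Under E1A scaling these became -2.22, -4.18 and 3.37.

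The representative probe of Hsp90aa1 stood at 4.66 and 4.07 on the EV arrays, 4.83 and 3.62 on the MSC arrays, 2.55 and 3.19 on the smoke arrays, and 3.67 and 4.82 on the naive arrays. Again the smoke arrays were below the other 6, but the spread within the MSC and naive groups was above 1 log2. The differences of 1.50 for EV minus smoke (SE 0.54, adjusted p = 0.062), 1.35 for MSC minus smoke (SE 0.54, adjusted p = 0.0637) and -1.38 for smoke minus naive (SE 0.54, adjusted p = 0.0708) just missed the threshold. Scaled to E1A they became -0.99, -2.67 and 1.58. The second probe stood at 4.18 and 3.32 on the EV arrays, 3.42 and 2.89 on the MSC arrays, 3.84 and 4.07 on the smoke arrays, and 3.23 and 2.94 on the naive arrays, and was not called either, at 0.88 in smoke against naive (adjusted p = 0.0886).

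Hspd1 encodes HSP60 and Hspe1 its lid, HSP10, and both proteins form the folding chamber of mitochondria. The genes share the promoter stretch printed above. The representative probe of Hspd1 stood at 3.33 and 2.99 on the EV arrays, 3.93 and 2.75 on the MSC arrays, 1.72 and 2.12 on the smoke arrays, and 2.72 and 3.53 on the naive arrays, so the smoke arrays were the lowest. Hspd1 rose in MSC against smoke by 1.42 log2 (SE 0.46, adjusted p = 0.0306), 2.68-fold, but stood at -2.60 under E1A scaling, and the mean of its 3 probes was 0.24 and not called. It was also not called with quantile normalization (0.72) or cyclic loess (0.72), without MSC array 1, where the difference was 0.83 (adjusted p = 0.153), or without smoke array 1 (0.147) or smoke array 2 (0.0628). The differences of 1.24 in EV against smoke (adjusted p = 0.0671) and -1.21 in smoke against naive (adjusted p = 0.0653) missed the threshold, with -1.24 and 1.76 under E1A scaling.

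The second probe of Hspd1 stood at -0.20 and -1.13 on the EV arrays, -1.07 and -1.51 on the MSC arrays, -0.19 and -0.15 on the smoke arrays, and -1.17 and -1.57 on the naive arrays. Here the smoke arrays were the highest, the opposite of the first probe. It was called at 1.20 in smoke against naive (SE 0.38, adjusted p = 0.0353) and at -1.12 in MSC against smoke (SE 0.38, adjusted p = 0.0359). Probe 3 of the gene ranged from -2.29 to -0.72 and was not called, at 0.48 in smoke against naive (adjusted p = 0.327).

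Hspe1 stood at 3.01 and 2.68 on the EV arrays, 3.1 and 2.11 on the MSC arrays, 2.53 and 2.67 on the smoke arrays, and 2.57 and 2.76 on the naive arrays. All groups but EV against smoke overlapped. Its differences were 0.25 for EV minus smoke (SE 0.37, adjusted p = 0.619), 0.0022 for MSC minus smoke (SE 0.37, adjusted p = 0.997) and -0.06 for smoke minus naive (SE 0.37, adjusted p = 0.901), and its second probe gave 0.29, 0.11 and -0.12. Both probes of Hspe1 have 10 spots on each array, as have the first probe of Hspd1 and the probe of Hspb1. The SD of the log2 signal over the spots of a probe within an array was 0.0096 to 0.098 among the probes with several spots. Scaled to E1A, Hspe1 stood at -2.24, -4.02 and 2.90 in the 3 comparisons.

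Hsf1, which encodes the transcription factor of the response, stood at -0.12 and -0.44 on the EV arrays, -1.24 and -1.13 on the MSC arrays, -0.31 and -0.02 on the smoke arrays, and -0.66 and -0.35 on the naive arrays. By this probe the MSC arrays were the lowest and overlapped with no other group. By the second probe they overlapped with the naive arrays. Hsf1 fell in MSC against smoke, with a difference of -1.02 log2 (SE 0.29, adjusted p = 0.0174) and of -5.04 scaled to E1A. The second probe gave -0.75 in the same comparison (adjusted p = 0.0619). The call was lost without MSC array 1, at -0.96 (adjusted p = 0.0523), and without smoke array 2, at -0.88 (adjusted p = 0.0967). The first probe stood at -0.11 in EV against smoke (adjusted p = 0.771) and 0.34 in smoke against naive (adjusted p = 0.351). The mRNA of Hsf1 does not measure its activity, which is set mainly by trimer formation and phosphorylation of the protein.

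**Figure D2:**
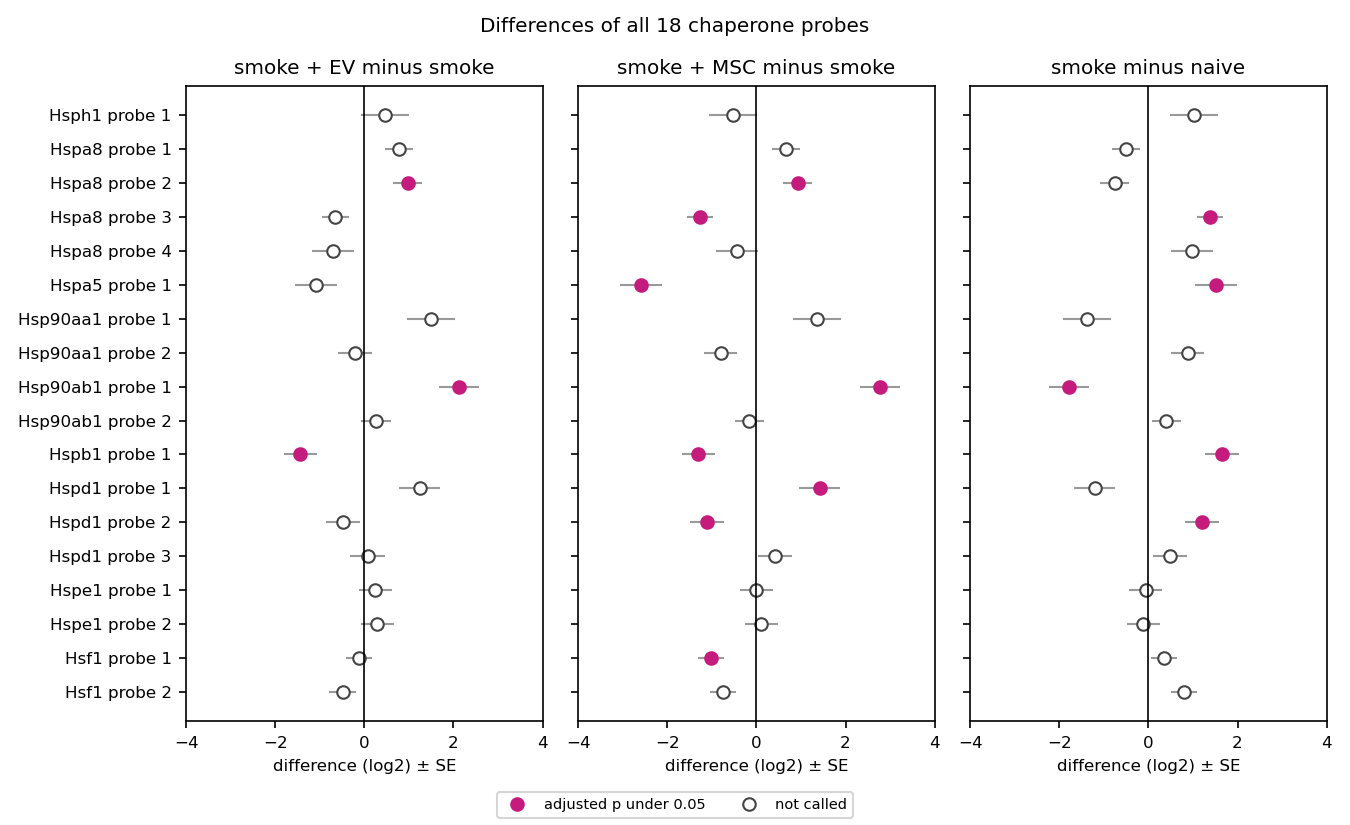
Log2 difference of all 18 chaperone probes, with SE, in EV minus smoke, MSC minus smoke and smoke minus naive, filled where the adjusted p is under 0.05. Probes of Hspa8 and of Hspd1 were called on both sides of 0 in MSC minus smoke on the percentile scale, while scaled to E1A all 18 lie below 0 in the first and second panels and above 0 in the third.

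Probe by probe, 3 of 18 were called between EV and smoke, 8 between MSC and smoke, and 5 between smoke and naive, beside 39%, 58.8% and 46.5% of all kept probes. In each of Hspa8, Hsp90aa1, Hsp90ab1 and Hspd1, the probe with the highest signal gave a negative difference in smoke against naive and a dimmer probe a positive one. The brightest probes of the whole array differed from the rest on this scale. Of the 143 probes with a mean level above 6, 97.9% were negative in smoke against naive, with a median of -1.33. The median was -0.84 at a mean level of 4 to 6 (82.2% negative) and -0.76 at 2 to 4 (77.8% negative). It was -0.58 at 0 to 2, -0.35 at -2 to 0, -0.50 at -4 to -2 and -0.63 below that. The part of brightness in the disagreement between probes was not tested. Of the chaperone probes, Hspa8 probes 1 and 2 lie in that brightest class, at -0.49 and -0.76, both above its median. Where on its transcript a probe lies was not used here. Heat shock genes have close relatives and processed copies in the genome, so the value of a single probe is uncertain where such a copy shares its target.

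**Figure D3:**
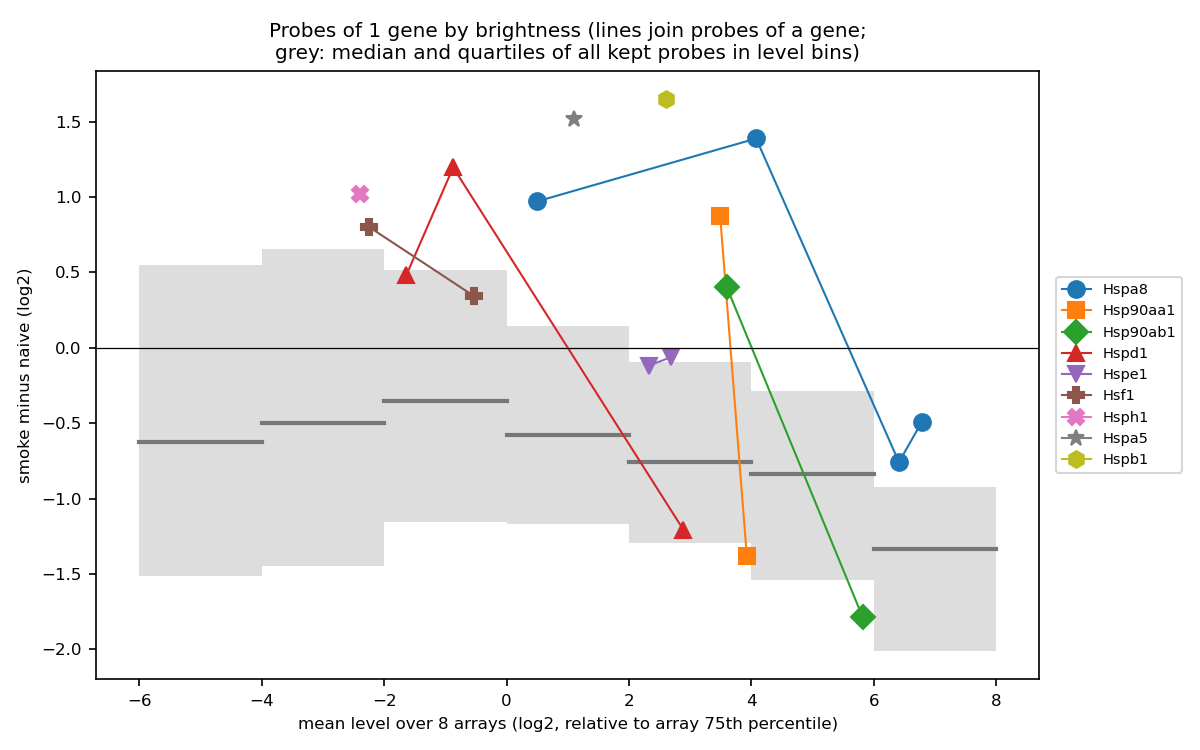
Smoke minus naive difference (log2) of each chaperone probe against its mean level over 8 arrays, with probes of 1 gene joined and, in grey, the median and quartiles of all kept probes by level, where the outermost classes are open and are drawn to -6 and 8. The brightest probe of Hspa8, Hsp90aa1, Hsp90ab1 and Hspd1 lies below 0 on the percentile scale and a dimmer probe of each above 0, and scaled to E1A all 18 lie above 0.

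Of the 9 genes, 6 changed sign between the percentile and the E1A scale for EV minus smoke, 5 for MSC minus smoke and 5 for smoke minus naive. Scaled to E1A, a constant of -2.48 is added to every EV minus smoke difference, -4.02 to MSC minus smoke and 2.96 to smoke minus naive. All 9 genes then stood lower in EV and in MSC than in smoke, and higher in smoke than in naive. Of the called genes, Hspa5, Hspb1 and Hsf1 kept their direction under normexp, quantile normalization, cyclic loess and E1A scaling, whereas Hsp90ab1 and Hspd1 kept theirs under the first 3 of these and turned under E1A scaling. Hspb1 was called in all 3 comparisons under each of these 4 settings, and Hspa5 in MSC against smoke and smoke against naive. With no filter on dim probes, Hspb1 lost its call in EV against smoke (adjusted p = 0.0533 by limma). Under that setting Hspa5 lost its call in smoke against naive (adjusted p = 0.0521).

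**Figure D4:**
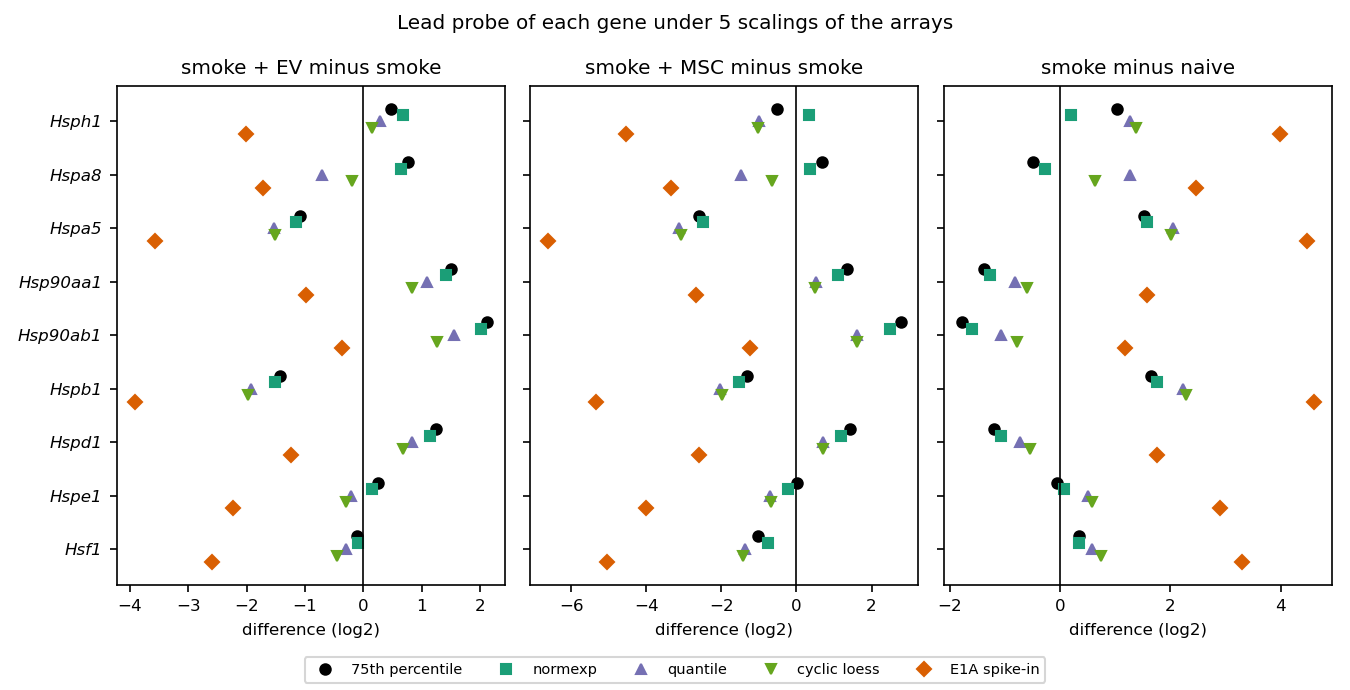
Log2 difference of the representative probe of each gene in EV minus smoke, MSC minus smoke and smoke minus naive, with the arrays scaled by the 75th percentile, normexp correction, quantile normalization, cyclic loess or the E1A controls. Hspa5 and Hspb1 stay on 1 side of 0 under all 5, and Hspa8 and Hsp90ab1 change sides.

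Set against naive rats, neither treated group differed in any chaperone gene by the test. In EV against naive 0 of 9 genes were called, beside 0% of named genes, and the smallest adjusted p of any probe by limma was 0.961. At an unadjusted p under 0.05 there were 2 of 18 chaperone probes and 1245 of all 29612. All 18 chaperone probes were higher in EV than in naive lung, with a median difference of 0.29, while 44.8% of all kept probes were. E1A scaling adds 0.48 to every EV minus naive difference, so it could turn none of these positive values. It moved the median of all named genes from -0.05 to 0.43. The largest chaperone difference on the percentile scale was that of Hsph1, at 1.49 (SE 0.54, adjusted p = 0.961), and the next by representative probe was Hspa5, at 0.43. Without naive array 1, Hsp90aa1 turned to -0.45 and Hspd1 to -0.37, and without EV array 1 to -0.18 and -0.13.

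In MSC against naive 0 of 9 genes were called by limma, beside 0% of named genes. The smallest adjusted p of any probe was 0.0504, just above the threshold. Of all 29612 probes, 340 were called with normexp, 192 with quantile normalization and 1755 scaled to E1A. With array weights or a fit of these 2 groups alone, 0 were called. Under each of these settings 0 of the 9 genes were called. At an unadjusted p under 0.05 there were 2 of 18 chaperone probes, the first of Hsf1 and the third of Hspd1 (0.90), and 6396 of all 29612. Hspa5 stood at -1.08 (SE 0.48, adjusted p = 0.241) and the first probe of Hsf1 at -0.68 (SE 0.29, adjusted p = 0.228), both lower on both MSC arrays than on both naive arrays. The second probe of Hsf1 stood at -2.33 and -2.64 on the MSC arrays and -2.80 and -2.26 on the naive arrays, which overlap. Hsp90ab1 stood at 0.99 (SE 0.44, adjusted p = 0.244), and at -0.07 scaled to E1A.

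EV and MSC rats were compared directly as well. In EV against MSC 0 of 9 genes were called by limma, beside 4.96% of named genes (1.68% higher and 3.28% lower), and 2 of 18 probes had an unadjusted p under 0.05, as had 9006 of all 29612. The 2 were Hspa5, at 1.50 (SE 0.48, adjusted p = 0.0887), and the first probe of Hsf1, at 0.91 (SE 0.29, adjusted p = 0.0889), and for both genes both EV arrays lay above both MSC arrays. The second probe of Hsf1 gave 0.26 (SE 0.30, adjusted p = 0.586). Hspa5 was called under normexp (1.34, adjusted p = 0.0133), with probes detected on all 8 arrays (adjusted p = 0.0439) and under E1A scaling (3.04), and Hsf1 under normexp (0.65, adjusted p = 0.0491) and E1A scaling (2.44). With E1A scaling 6 of 9 genes were called, all higher in EV, beside 12013 of all 29612 probes, 99.9% of them higher. The largest difference the other way was Hsp90ab1, at -0.66 (SE 0.44, adjusted p = 0.348), which turned to 0.88 scaled to E1A. A p that misses the threshold does not show that the treatments act alike, and the SEs of these differences were 0.29 to 0.54.

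Among 92 further genes of protein folding, in 8 lists, 86 were measured. Between smoke and naive 27 of the 86 rose and 10 fell, with a median of 0.31 against -0.38 for all named genes. Of all named genes 14.8% rose and 28.5% fell, the shares to set beside this count and each list below. The split of higher to lower calls was 33 to 7 with quantile normalization, 38 to 5 with cyclic loess, 26 to 24 with normexp and 85 to 0 scaled to E1A. Without smoke array 1 it was 5 to 0, without smoke array 2 it was 15 to 5, without naive array 1 it was 16 to 10, and without naive array 2 it was 16 to 2.

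The endoplasmic reticulum list, which holds the partners of BiP and the sensors of the unfolded protein response, had 10 of 22 genes higher in smoke than naive and 4 lower. Pdia6 and P4hb, protein disulfide isomerases, rose by 1.92 (SE 0.38, adjusted p = 0.00691) and 1.89 (SE 0.38, adjusted p = 0.00743), beside the rise of Hspa5. The 4 lower genes were the disulfide isomerase gene Pdia4, at -1.27 (adjusted p = 0.0165), Sil1, an exchange factor for BiP, at -1.50 (adjusted p = 0.00886), the lectin chaperone gene Canx, at -1.12 (adjusted p = 0.0307), and the transcription factor gene Atf4, at -1.08 (adjusted p = 0.0434). Scaled to E1A they became 1.69, 1.46, 1.84 and 1.89. These 4 were chosen after their values were seen. The median of the list was 0.03.

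The CCT, co-chaperone and HSP70 lists held more higher than lower calls in smoke against naive, and the J-domain list as many of each, whereas scaled to E1A no call was lower. In the CCT chaperonin, which folds actin and tubulin, 3 of 8 subunits rose and 0 fell, with Cct5 at 2.45 (SE 0.48, adjusted p = 0.00661) and Cct7 at 1.33 (SE 0.37, adjusted p = 0.0218). Of 19 co-chaperones 4 rose and 1 fell: Hspbp1, an exchange factor for HSP70, was higher at 1.79 (SE 0.33, adjusted p = 0.00555), and the ubiquitin ligase gene Stub1 (CHIP) was lower at -1.54 (SE 0.31, adjusted p = 0.00736), which became 1.42 scaled to E1A. Of 8 other HSP70 and HSP110 genes 2 rose and 0 fell, Hspa13 at 2.34 (SE 0.35, adjusted p = 0.00306) and Hspa12a at 2.79 (SE 0.43, adjusted p = 0.00321), the second detected on 1 of 2 naive arrays, as was Hspbp1. Of 12 J-domain genes 3 rose and 3 fell, with Dnaja2 at 1.61 (adjusted p = 0.00499) and Dnajb14 at -1.42 (adjusted p = 0.0105), which became 1.54 scaled to E1A.

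The smaller lists followed. Of 5 other small heat shock protein genes 1 rose, Hspb6, at 2.03 (SE 0.50, adjusted p = 0.0142), and 0 fell. Of 7 mitochondrial genes 1 rose, the exchange factor gene Grpel1, at 1.67 (SE 0.51, adjusted p = 0.0307), and 1 fell, Trap1, the mitochondrial HSP90, at -0.78 (SE 0.27, adjusted p = 0.0484), which became 2.19 scaled to E1A. Of 5 heat shock factors and regulators 3 rose and 1 fell, with Vcp, a segregase of ubiquitinated proteins, at 1.93 (adjusted p = 0.00532) and Hsbp1, a binding protein of HSF1, at 1.27 (adjusted p = 0.0196). Of the 15 genes named by rule in smoke against naive, 10 lost their call without smoke array 1 (highest adjusted p 0.218), 4 each without naive array 1 (0.139) or 2 (0.174), and 2 without smoke array 2 (0.103).

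**Figure D5:**
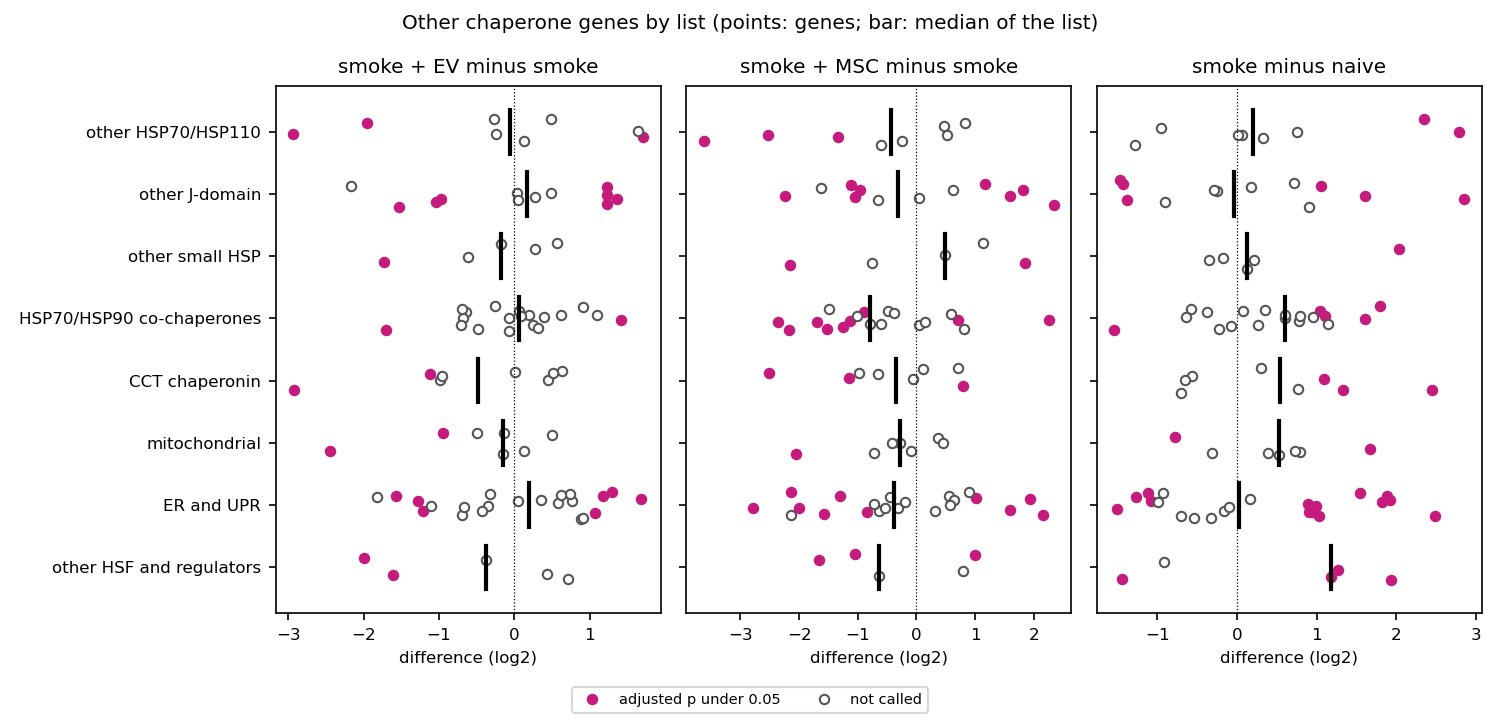
Log2 difference of 86 further protein folding genes in 8 lists in EV minus smoke, MSC minus smoke and smoke minus naive, filled where the adjusted p is under 0.05, with a bar at the median of each list. Genes of most lists lie on both sides of 0 on the percentile scale, whereas scaled to E1A every call is lower in the first and second panels and higher in the third.

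In MSC against smoke 13 of the 86 genes rose and 26 fell, with a median of -0.47 against 0.42 for all named genes. Of all named genes 35.9% rose and 19.9% fell. The split of higher to lower calls was 8 to 43 with quantile normalization, 7 to 45 with cyclic loess, 25 to 26 with normexp and 0 to 86 scaled to E1A, and without smoke array 1 it was 6 to 15. Without MSC array 2, which was high in cardiac muscle markers, it was 18 to 19, and without MSC array 1 it was 9 to 22. P4hb fell, at -2.79 (SE 0.38, adjusted p = 0.000832), and Pdia4 rose, at 2.15 (SE 0.33, adjusted p = 0.0012), which became -1.87 scaled to E1A. Stub1 rose by 2.26 (adjusted p = 0.00084), and Dnaja4 by 2.34 (adjusted p = 0.00108), and these became -1.76 and -1.68 scaled to E1A. Dnaja2 fell, at -2.24 (adjusted p = 0.000658), as did Hspa13, at -2.53 (adjusted p = 0.00086), and Cct5, at -2.51 (adjusted p = 0.00334). Hspa12a and Hspbp1 were not well above background on either MSC array. Hspa12a was at least 10.1-fold lower on the percentile scale (adjusted p = 0.000476). Hspbp1 was 5.14-fold lower by the fit (adjusted p = 0.000917). This fold is not a lower bound, because it uses MSC signal that was not well above background. With normexp Hspbp1 stood 0.30 log2 higher in MSC than in smoke.

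In EV against smoke 10 of the 86 genes rose and 16 fell, with a median of 0.02 against 0.35 for all named genes. Of all named genes 22.5% rose and 12% fell. The split was 7 to 19 with quantile normalization, 2 to 23 with cyclic loess, 24 to 17 with normexp and 0 to 81 scaled to E1A. It was 0 to 2 without smoke array 1, 0 to 3 without EV array 2 and 2 to 10 without EV array 1. Cct5 fell, at -2.92 (SE 0.48, adjusted p = 0.00559), Hspa12a at -2.93 (SE 0.43, adjusted p = 0.00459) and Vcp at -1.99 (SE 0.36, adjusted p = 0.00669). Pdia4 rose, at 1.68 (SE 0.33, adjusted p = 0.00832), as did Stub1, at 1.41 (SE 0.31, adjusted p = 0.0125), and these became -0.81 and -1.07 scaled to E1A. Of the 15 genes named by rule, 13 lost their call without smoke array 1 (highest adjusted p 0.293) and 12 without EV array 2 (0.172).

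In EV against MSC, 1 of the 86 genes was called. Hspb8, a small heat shock protein gene whose product works with BAG3 in selective autophagy, was lower in EV, at -1.28 (SE 0.26, adjusted p = 0.0428), and stood at 0.25 scaled to E1A. The call was lost with any 1 of the EV, MSC or smoke arrays left out (adjusted p from 0.0624 to 0.255). It was also lost with the replicate number as a block (0.0571), array weights (0.066), a fit of both groups alone (0.0946), no filter on dim probes (0.133) and without both smoke arrays (0.076).

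Genes with a pattern like that of Hspa8 and Hsf1 over the 8 arrays were sought among 12485 named genes, leaving out provisional names, with the Pearson correlation of the level as the measure of likeness. For Hspa8 they were Ppp1r1b at 0.985, Prap1 at 0.973 and Map3k9 at 0.957. For Hsf1 they were Wasl at 0.986, Adcy7 at 0.980 and Slc35e2b at 0.976. The 8 arrays are 4 pairs and share their scaling, so these values describe the arrays and carry no test.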

How the data were processed

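The authors deposited Agilent Feature Extraction 10.7.3.1 output for array design 074036, per the file headers: background-subtracted processed intensity values per spot, not normalized between arrays. The deposited flags per spot (0 or 1) say whether it is well above background or an outlier. RNA came from 30 mg of lung, with 200 ng labelled, per the labels' protocols.

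Of 62976 spots per array, 4259 were controls and were left out, as were outlier spots. The remaining spots of each probe were averaged on the array, and the level is the log2 intensity less that of the 75th percentile of all remaining spots of the array. A probe was kept if some group had it well above background on its 2 arrays (29612 of 45598), and a probe was detected when over 0.5 of its spots were. Names came from matching transcript accessions to RefSeq of GRCr8 (21215 probes matched). Limma 3.58.1 in R 4.3.3 fitted 4 group means over 8 arrays (4 residual degrees of freedom), with 6 contrasts, 2-sided, and Benjamini-Hochberg adjustment over all kept probes. A bound on a fold sets the bright group against the higher of the dim probe and the lowest signal well above background, per array. The E1A scaling used 7 of 10 control probes. The fit was also run on simulated arrays, in which few probes changed and no array shifted as a whole. That run does not bear on the scaling, or on comparisons in which a large share of probes was called. Figures used Python 3.11.15 and matplotlib 3.10.9.

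The members, lists and tests were chosen with earlier results of these data known. The rule named all members, the 2 members of each list with the smallest p among those called, and the 3 genes most like Hspa8, Dnajb1 and Hsf1. The number of arrays limits the precision.

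Alternatives were normexp (offset 50, on median spot signal), quantile normalization, cyclic loess, E1A scaling, other filters on dim probes, 1 probe or the mean of probes per gene, fits of 2 groups, a trended prior, array weights, a replicate block, and leaving out each array or both smoke arrays.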

Additional observations from a re-analysis of the deposited data

How the results depend on the processing

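Counts of called chaperone genes, of 9, depended on the processing in 4 of the 6 comparisons. In EV against smoke, 2 were called, against 6 with normexp, 6 scaled to E1A, 1 with no filter on dim probes, 4 with probes well above background on all 8 arrays, 6 when only these 2 groups were fitted, 5 with a trended and robust prior and 6 with array weights. In MSC against smoke, 5 were called, against 8 scaled to E1A. In smoke against naive, 3 were called, against 5 with normexp, 8 scaled to E1A, 5 with probes well above background on all arrays and 5 with the trended prior. In EV against MSC, 0 were called, against 2 with normexp, 6 scaled to E1A and 1 with probes well above background on all arrays. With 1 array left out the counts were 0 to 5 for EV against smoke, 2 to 6 for MSC against smoke, 0 to 5 in smoke against naive and 0 in EV against MSC. Against naive, both treated groups had 0 calls under every alternative run. Leaving out both smoke arrays changed no chaperone call in the 3 comparisons that do not use them. Scaled to E1A, calls among all kept probes were also more numerous in these 4 comparisons. The causes of these changes were not tested.

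The sign turned with quantile normalization in EV against smoke for Hspa8 (-0.70), Hspe1 (-0.21), and in MSC against smoke for Hspa8 (-1.47), Hspe1 (-0.71), and in smoke against naive for Hspa8 (1.27), Hspe1 (0.50), and in EV against MSC for Hspb1 (0.10), Hspd1 (0.11), and in MSC against naive for Hspa8 (-0.20), Hspd1 (-0.0097). With cyclic loess it turned in EV against smoke for Hspa8 (-0.20), Hspe1 (-0.30), and in MSC against smoke for Hspa8 (-0.66), Hspe1 (-0.67), and in smoke against naive for Hspa8 (0.63), Hspe1 (0.58), and in MSC against naive for Hspa8 (-0.033). Scaled to E1A it turned in EV against smoke for Hsph1 (-2.01), Hspa8 (-1.71), Hsp90aa1 (-0.99), Hsp90ab1 (-0.36), Hspd1 (-1.24), Hspe1 (-2.24), Stub1 (-1.07), Dnajb14 (-1.26), Pdia4 (-0.81), and in MSC against smoke for Hspa8 (-3.35), Hsp90aa1 (-2.67), Hsp90ab1 (-1.24), Hspd1 (-2.60), Hspe1 (-4.02), Stub1 (-1.76), Dnaja4 (-1.68), Pdia4 (-1.87), Hspb8 (-2.17), and in smoke against naive for Hspa8 (2.47), Hsp90aa1 (1.58), Hsp90ab1 (1.18), Hspd1 (1.76), Hspe1 (2.90), Stub1 (1.42), Dnajb14 (1.54), Trap1 (2.19), and in EV against MSC for Hsp90ab1 (0.88), Hspb1 (1.41), Hspd1 (1.36), Hspb8 (0.25), and in MSC against naive for Hsph1 (-0.57), Hspa8 (-0.88), Hsp90ab1 (-0.066), Hspb1 (-0.71), Hspd1 (-0.84). With normexp it turned in MSC against smoke for Hsph1 (0.35), Hspe1 (-0.23), Hspbp1 (0.30), and in smoke against naive for Hspe1 (0.077), and in EV against MSC for Hspb1 (0.018). When the probes of a gene were averaged it turned in MSC against smoke for Hspa8 (-0.026), and in smoke against naive for Hspa8 (0.28), Hspd1 (0.16), and in EV against MSC for Hspd1 (0.033), and in MSC against naive for Hsp90aa1 (0.026). With 1 array left out the sign of some differences also turned. In EV against smoke the range was -0.19 to 1.12 for Hsph1, -0.27 to 0.047 for Hsf1. In MSC against smoke the range was -0.49 to 0.49 for Hspe1. In smoke against naive the range was -0.15 to 0.028 for Hspe1. In EV against MSC the range was -0.18 to 0.37 for Hspa8, -0.46 to 0.75 for Hsp90aa1, -0.61 to 0.36 for Hspb1, -0.77 to 0.41 for Hspd1, -0.25 to 0.74 for Hspe1. In EV against naive the range was -0.45 to 0.69 for Hsp90aa1, -0.37 to 0.44 for Hspd1. In MSC against naive the range was -0.014 to 1.00 for Hsph1, -0.10 to 0.46 for Hspa8, -0.63 to 0.58 for Hsp90aa1, -0.14 to 0.83 for Hspb1, -0.37 to 0.81 for Hspd1, -0.55 to 0.43 for Hspe1.

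The deviations of arrays of the same replicate number from their group means correlated at -0.14 to 0.14 between groups. With 2 arrays a group this check cannot exclude that the numbers pair the arrays. With the replicate number as a block, the counts were 2 for EV with smoke, 5 for MSC with smoke and 3 for smoke with naive, as without it, and 4 calls of named genes outside the 9 were lost. With 2 arrays a group and 4 residual degrees of freedom, a call rests on the spread pooled over groups. All 18 chaperone probes were well above background on every array.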
